A study of Mus musculus with 58 samples.

Results

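The genes described here are 9 complement components and receptors of mouse microglia, namely C1qa, C1qb, C1qc, C3, C4b, Cfb, C3ar1, C5ar1 and Itgam. They were chosen by symbol and matched to Ensembl identifiers, and all 9 were found among the 47643 genes counted in each of 34 libraries. Primary microglia from wildtype mice received 2 µg/ml of full-length tau fibrils for 24 h or vehicle, for which no time was given, with 4 libraries each. Adult microglia were isolated with beads against the CD11b protein from 11-month-old males, either PS19 mice, transgenic for P301S mutant human tau, or non-transgenic (NTG) mice, with 4 libraries each. The labels put the 4 PS19 mice at 10.98 months and the NTG mice at 10.98 or 11.18 months, 2 each. IkbkbCA cultures (Cx3cr1 CreERT2/+; IkbkbCA F/F) can express a constitutively active form of IKKβ, the kinase that switches on NF-κB, and were compared with IkbkbWT cultures (Cx3cr1+/+; IkbkbCA F/F), 5 libraries each. Ikbkb-/- cultures (Cx3cr1 CreERT2/+; Ikbkb F/F) lose that kinase and were compared with Ikbkb+/+ cultures (Cx3cr1+/+; Ikbkb F/F), 4 libraries each. To induce recombination, the methods of the study describe incubation of the mixed glia with 4-hydroxytamoxifen. They state that control microglia lacking Cre received tamoxifen too. The Cre recombinase sits in the Cx3cr1 gene and was present in the altered genotypes and absent from their controls, so its presence and the change of IKKβ cannot be told apart in these comparisons. All cultures were of newborn hippocampus and cortex, of pups whose sex was not given, and were shaken off mixed glia.

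Complement is a cascade of proteins that tags particles, cells and synapses for uptake. C1q, built from the chains of C1qa, C1qb and C1qc, starts the classical pathway, which acts through C4 to cleave C3, and factor B (Cfb) amplifies C3 cleavage through the alternative pathway. Fragments of C3 and C5 act on the receptors encoded by C3ar1 and C5ar1, and deposited C3 is bound by an integrin whose alpha chain, CD11b, is the product of Itgam. Microglia are the main source of C1q in the brain, and C1q, C3 and CD11b take part in the removal of synapses.

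The genes lie on the GRCm38 mouse genome, where the 3 C1q genes are neighbours on chromosome 4 (C1qa chr4:136895917-136898803, C1qb chr4:136880129-136886187, C1qc chr4:136889804-136893065). C3 (chr17:57203970-57228136), C4b (chr17:34728380-34743882) and Cfb (chr17:34856374-34862518) are on chromosome 17. The receptors are C3ar1 (chr6:122847138-122856161), C5ar1 (chr7:16246743-16259540) and Itgam (chr7:128062640-128118491), and all 9 genes are protein coding. The 250 bases upstream of the start site are shown for 4 of the 6 members with a promoter in the RefSeq table (GRCm38.p6). C3 and Itgam are shown as examples of genes that rose both with tau fibrils and in IkbkbCA. C1qb and C3ar1 are examples of genes that rose with tau fibrils and were not called in IkbkbCA. Of the members not shown, C1qc also rose in both, and C5ar1 also rose with tau fibrils and was not called in IkbkbCA. Capitals mark matches, on either strand, to the letters of a κB motif (GGG, any 5 bases, CC), a C/EBP motif (TTGCNNAA) or a PU.1 motif (GAGGAA).
C3 (chr17:57228137-57228386, minus strand): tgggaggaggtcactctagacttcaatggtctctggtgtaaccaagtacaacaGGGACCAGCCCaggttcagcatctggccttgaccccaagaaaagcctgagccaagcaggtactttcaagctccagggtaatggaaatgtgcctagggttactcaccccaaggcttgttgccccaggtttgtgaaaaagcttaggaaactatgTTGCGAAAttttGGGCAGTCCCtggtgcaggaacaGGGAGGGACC
Itgam (chr7:128062390-128062639, plus strand): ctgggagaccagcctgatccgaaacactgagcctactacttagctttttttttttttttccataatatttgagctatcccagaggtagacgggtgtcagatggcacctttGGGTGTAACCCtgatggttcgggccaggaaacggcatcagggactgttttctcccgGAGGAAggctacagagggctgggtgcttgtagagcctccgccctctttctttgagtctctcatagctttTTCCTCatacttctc
C1qb (chr4:136886201-136886450, minus strand): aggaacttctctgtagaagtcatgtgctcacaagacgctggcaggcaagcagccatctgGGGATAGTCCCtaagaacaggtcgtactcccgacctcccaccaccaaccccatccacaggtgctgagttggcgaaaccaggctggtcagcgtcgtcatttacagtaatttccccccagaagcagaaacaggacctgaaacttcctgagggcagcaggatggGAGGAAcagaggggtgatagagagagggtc
C3ar1 (chr6:122856158-122856407, minus strand): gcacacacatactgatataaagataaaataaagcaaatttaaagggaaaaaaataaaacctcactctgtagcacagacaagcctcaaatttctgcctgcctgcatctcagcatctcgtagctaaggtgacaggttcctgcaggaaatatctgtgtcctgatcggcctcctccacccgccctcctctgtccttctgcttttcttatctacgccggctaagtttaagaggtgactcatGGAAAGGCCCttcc
The κB letters began 197 and 196 bases upstream of the C3 start, where a pair of matches overlaps by all but 1 base, and again 33 and 10 bases upstream. C3 also held the C/EBP letters 45 bases upstream. Itgam held an overlapping pair of κB matches 140 and 139 bases upstream and the PU.1 letters 84 and 15 bases upstream. C1qb held such a pair 191 and 190 bases upstream and the PU.1 letters 30 bases upstream, and C3ar1 had κB letters 14 bases upstream. Of 32851 promoter windows of this length, 45.8% held the κB letters, 9.56% the C/EBP letters and 23.3% the PU.1 letters, so a κB match was common. The windows of C1qc, with κB and PU.1 letters, and of C5ar1, with none of the motifs, are not shown. The letters of an interferon response element (GAAA, any 2 bases, GAAA, in 2.98% of windows) or of a GAS element (TTCNNNGAA, in 7.02%) were in none of the 6 windows. A match describes the letters only.

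Levels are given in CPM, the counts of a library scaled to its TMM-normalized size, within a comparison. Summed markers are in CPM normalized over all 34 libraries, a scale that differs from that of the gene levels beside them. The libraries held 1672052 to 8349128 counts each, and since QuantSeq reads come from transcript 3′ ends, counts do not grow with gene length. A gene was tested where edgeR's filter kept it and called where the Benjamini-Hochberg false discovery rate (FDR) of edgeR's quasi-likelihood test was under 0.05. The labels do not say that the libraries of a culture group came from separate cultures, so the p-values measure the spread between these libraries, which may be technical. In the genotype checks, Ikbkb was 22.9 ± 3.03 CPM in Ikbkb-/- and 52.2 ± 4.25 CPM in Ikbkb+/+ (SD, n = 4 each; log2 fold change -1.20, FDR 6.3e-07), while 52.5 against 46.9 CPM in IkbkbCA and IkbkbWT (FDR 0.41) does not check the label, because reads at the 3′ end may miss the transgene. Cx3cr1, the gene that holds Cre, fell by 0.56 in IkbkbCA (FDR 0.0015) and by 1.16 in Ikbkb-/- (FDR 1.6e-06) on the log2 scale in edgeR. All 8 microglia markers were detected in every group. Library 3 of IkbkbWT and library 3 of IkbkbCA stood apart from the others of their groups, with summed oligodendrocyte markers of 4576 and 1686 CPM.

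In the plot of levels by library, C3 and Cfb stood high in the tau fibril and IkbkbCA groups, and the C1q genes were lowest with vehicle.

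**Figure D1:**
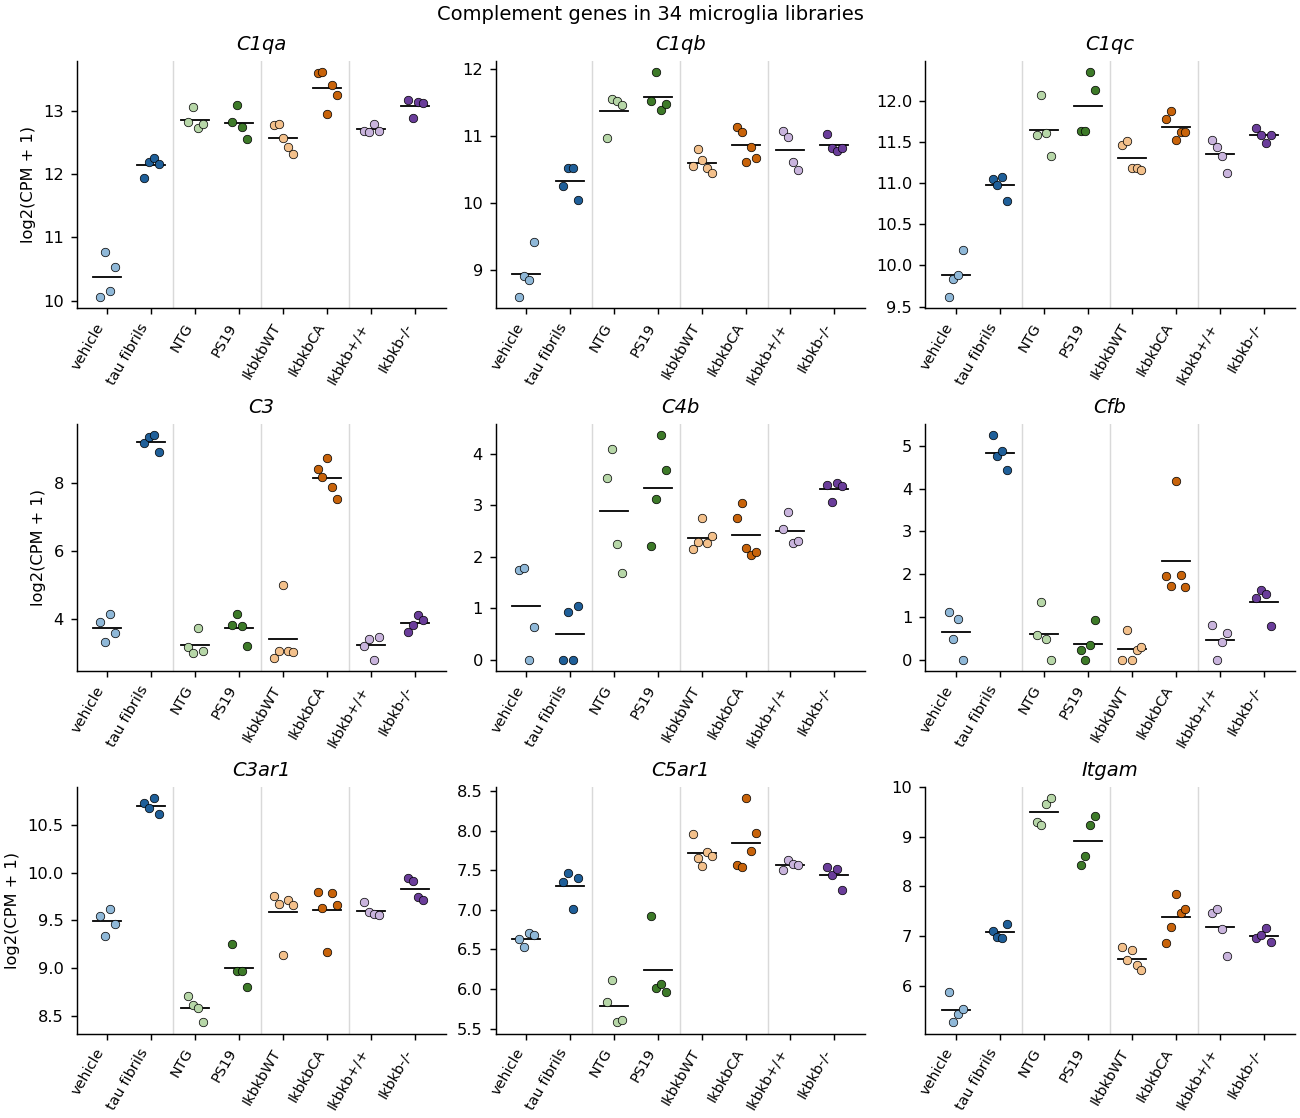
Level of each of the 9 genes in the 34 libraries, with log2(CPM + 1) on the vertical axis and the 8 groups on the horizontal axis; points are libraries, black bars are group means and grey lines separate the 4 comparisons. C3 lies highest in the tau fibril and IkbkbCA libraries, and Itgam in those of NTG and PS19.

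With tau fibrils, all 8 complement genes that could be tested rose, and C3 rose most, 49.7-fold. The 3 C1q chains rose 2.12- to 3.34-fold and the receptors 1.61- to 2.98-fold. Of the 10408 genes tested, 29.9% were called and 14.5% were called higher, and 28.3% had groups that did not overlap, as all 8 tested members did. Cfb, counted among these 8, passed the filter through the tau fibril libraries alone, so its call is given as a description. The median log2 fold change of the tested members was 1.48, against -0.01 over all genes tested. C4b, near 0 counts, did not pass the filter.

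C1qa, the A chain of C1q, was 3922, 4704, 4901 and 4604 CPM in the 4 tau fibril libraries and 1065, 1744, 1136 and 1482 CPM in the vehicle libraries. Every treated library was above every vehicle library, and the log2 fold change was 1.74 (SE 0.15, FDR 4.6e-10 in edgeR's quasi-likelihood test). C1qb, the B chain, ran from 1051 to 1465 CPM with fibrils and from 385 to 677 CPM with vehicle (log2 fold change 1.38, SE 0.15, FDR 6.7e-08 in the same edgeR test). The C chain gene C1qc ran from 1757 to 2163 CPM and from 785 to 1164 CPM (1.08, SE 0.13, FDR 4.1e-07), again without overlap. The 3 genes together took 0.690% to 0.786% of the counts of a tau fibril library and 0.229% to 0.361% of a vehicle library. The summed CPM of the 8 microglia markers ran from 7075 to 8272 with fibrils and from 3989 to 4792 with vehicle, that of the astrocyte markers from 358 to 419 and from 650.3 to 697, and that of the neuron markers from 30.1 to 42.0 and from 65.3 to 81.7. In libraries of bulk cells a smaller share of a cell type and less RNA per cell cannot be told apart, and the part of these markers in the rise of the complement genes was not tested.

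C3, the central component whose cleavage all pathways share, was 582, 663, 684 and 481 CPM with tau fibrils and 13.99, 8.94, 16.6 and 10.9 CPM with vehicle. The lowest treated library was far above the highest vehicle library. The fold was 49.7 (log2 5.64, SE 0.19, FDR 1.7e-18, edgeR). Cfb, the protease subunit of the alternative pathway convertase, had 62, 58, 72 and 39 counts with fibrils and 2, 2, 2 and 0 counts with vehicle. The ratio of the normalized sums of 231 and 6 counts was 49.2, with a 95% interval of 22.3 to 136 that covers counting error only. The edgeR FDR of 7.1e-11 is given as a description, since only the tau fibril libraries brought Cfb past the filter. Cfb reads may be undercounted in every library, since 91.6% of the 50-base words in the last 500 bases of its transcript also occur in the C2-Cfb readthrough gene Gm20547, which had 0 counts throughout. C4b, the component cleaved after C1q binding, had 0, 2, 0 and 2 counts with fibrils and 4, 12, 0 and 1 with vehicle, a ratio of 0.301 (counting interval 0.0737 to 0.923) that rests largely on 1 vehicle library. C4b values are uncertain throughout, because 38.1% of such words in its transcript are shared with the near copy C4a.

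Among the receptors, C3ar1, which binds the C3a fragment, was 1704, 1637, 1768 and 1575 CPM with fibrils and 745, 648, 784 and 705 CPM with vehicle. The groups were far apart, and the log2 fold change was 1.21 (SE 0.12, FDR 9.4e-09, edgeR). Itgam ran from 124 to 152 CPM with fibrils and from 37.6 to 57.7 CPM with vehicle (1.58, SE 0.15, FDR 4.5e-09). C5ar1, the receptor of the C5a fragment, had the smallest fitted change of the tested members, at 127 to 175 CPM against 91.1 to 104 CPM (0.69, SE 0.14, FDR 3.0e-04), also without overlap.

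The plot of fold changes sets the 4 comparisons side by side for each gene.

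**Figure D2:**
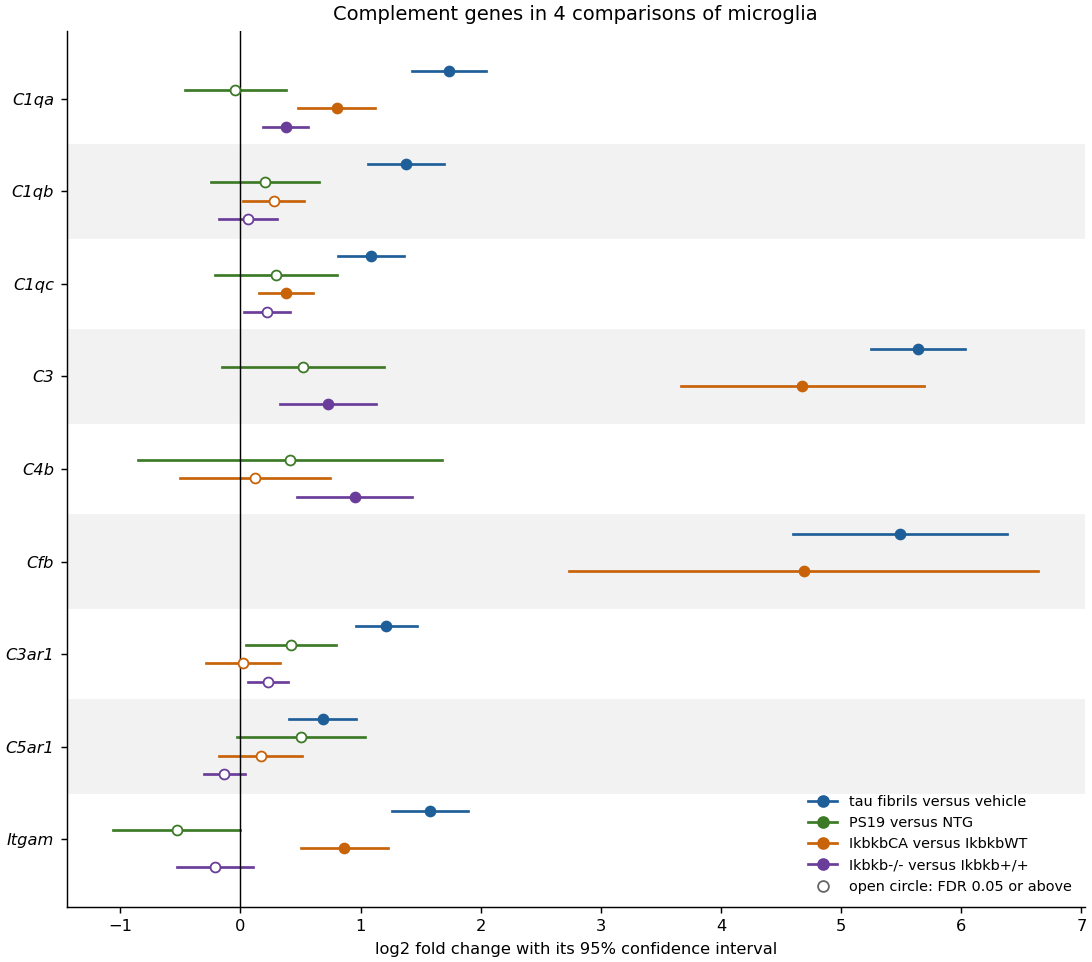
Log2 fold change of each gene (horizontal axis) in the 4 comparisons, with points for the edgeR estimate and lines for its 95% confidence interval; filled points passed an FDR of 0.05 and open points did not. A gene without a point in a comparison was not tested there. All 8 points of the tau fibril comparison are filled and lie above 0, and none of those of PS19 is filled.

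In microglia from 11-month-old PS19 mice, none of the 8 tested complement genes was called by edgeR's quasi-likelihood test, and Cfb was too low to test. The background was low too, with 0.0707% of 11323 genes called, and 2 members had an unadjusted p under 0.05 (977 of all genes tested). DESeq2 and limma-voom also called 0 members, one fit of all 34 libraries called C3ar1 (FDR 0.044 in edgeR), and over all genes DESeq2 and limma-voom called 98 and 4 where edgeR called 8. The median log2 fold change of the tested members was 0.35, against 0.00 over all genes. The biological coefficient of variation between mice of a group was 30.5%, the widest of the 4 comparisons.

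C3ar1 was 607, 500.3, 499.9 and 445 CPM in PS19 and 416, 391, 381 and 344 CPM in NTG. It was the only member whose groups did not overlap, as 5.77% of all genes tested did, and its log2 difference of 0.42 (SE 0.17, 95% confidence interval 0.05 to 0.79) had an FDR of 0.53 in the edgeR test of these 8 libraries. C3 was 13.2, 16.5, 12.8 and 8.199 CPM in PS19 and 8.03, 6.94, 12.2 and 7.22 CPM in NTG, so that the groups overlapped in 1 library each. Its difference was 0.52 on the log2 scale, and the interval of -0.15 to 1.19 lies below the change seen with tau fibrils. C1qa, at 6014 to 8786 CPM in PS19 and 6787 to 8592 CPM in NTG, differed by -0.04 (interval -0.46 to 0.38). C1qb differed by 0.21 (interval -0.24 to 0.66) and C1qc by 0.30 (interval -0.21 to 0.80), with overlapping groups.

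Itgam was 341, 389, 600.4 and 678 CPM in PS19 and 624, 599, 802 and 878 CPM in NTG. No PS19 library was above all NTG libraries, and its difference of -0.53 on the log2 scale had an FDR of 0.58 (edgeR). The protein of this gene was the target of the beads used to isolate the cells. C5ar1 was 120.3 CPM in 1 PS19 library and 61.2 to 65.7 CPM in the others, against 46.8 to 68.2 CPM in NTG (0.50, FDR 0.61 in edgeR). C4b ran from 3.63 to 19.7 CPM in PS19 and from 2.22 to 16.2 CPM in NTG (0.41, FDR 0.88 in edgeR), and Cfb had 0 to 6 counts per library. Summed granulocyte markers ran from 420.3 to 2689 CPM in PS19 and from 1612 to 2253 CPM in NTG, and granulocytes also bear CD11b. In the PS19 library high in C5ar1 the granulocyte sum was the lowest, and that of border-associated macrophages was 752 CPM, against 258 to 447 CPM in the other 7 libraries. Summed microglia markers were 23304, 27604, 33518 and 38450 CPM in PS19, in library order, and 32236 to 35396 CPM in NTG. Itgam ranked the PS19 libraries in that order, and C3ar1 in the reverse order. Neither order held in NTG, where Itgam was lowest (599 CPM) in library 2, the library with the highest microglia sum (35396 CPM). Astrocyte markers were 862, 1094, 2039 and 1621 CPM in PS19 and 689 to 1054 CPM in NTG. C4b and C1qc ranked the PS19 libraries as these did, but not the NTG libraries, and C1qc was almost the same in PS19 libraries 1 and 2 (3160 and 3163 CPM). These orders were seen in the data and describe few libraries. The part of these cell types in these values was not tested.

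In IkbkbCA cultures 5 of the 9 genes rose, namely C1qa, C1qc, C3, Cfb and Itgam, and the other 4 were not called. Cfb, counted among the 5 that rose, passed the filter through the IkbkbCA libraries alone, so its call is given as a description. C3 rose 25.5-fold, C1qa 1.74-fold, Itgam 1.82-fold and C1qc 1.30-fold. Of 11697 genes tested, 14.5% were called and 7.31% were called higher. The same 5 members had groups that did not overlap, as 12.7% of all genes did. The median log2 fold change of the members was 0.38, against -0.05 over all genes tested.

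C3 was 342, 289, 426, 235 and 184 CPM in IkbkbCA and 6.18, 7.32, 31.0, 7.28 and 7.15 CPM in IkbkbWT. Library 3 of IkbkbWT stood well above the other 4 libraries of its group and below every IkbkbCA library. The log2 fold change was 4.67 (SE 0.46, FDR 5.0e-05, edgeR) and 5.40 without that library, whose summed astrocyte and oligodendrocyte markers of 185 and 4576 CPM were the highest of its group. Cfb had 17, 12, 94, 21 and 9 counts in IkbkbCA and 0, 3, 0, 1 and 2 counts in IkbkbWT, a ratio of 28.5 (counting interval 12.8 to 79.0). Its edgeR FDR of 0.0042 is given as a description, since only the IkbkbCA libraries brought it past the filter. Library 3 of IkbkbCA, at 17.3 CPM, was far above the other 4 at 2.25 to 2.93 CPM, and the fitted log2 change of 4.69 became 3.63 without it. C4b was 3.07 to 7.29 CPM in IkbkbCA and 3.41 to 5.77 CPM in IkbkbWT (0.12, FDR 0.85), with overlapping groups.

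C1qa was 12500.0, 12574, 7952, 10966 and 9847 CPM in IkbkbCA and 7084, 7128, 6077, 5545 and 5098 CPM in IkbkbWT. The groups did not overlap, and the log2 fold change was 0.80 (SE 0.15, FDR 0.0031, edgeR). C1qc, at 2942 to 3763 CPM against 2283 to 2917 CPM, rose less (0.38, SE 0.10, FDR 0.031 in edgeR), and this call was lost when any of 6 single libraries was left out, with an FDR of up to 0.082, with no filter (FDR 0.12) and in one fit of all 34 libraries (FDR 0.071). C1qb was 1552 to 2228 CPM in IkbkbCA and 1394 to 1782 CPM in IkbkbWT (0.28, SE 0.12, FDR 0.15 in edgeR), and the groups overlapped.

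Of the receptors, Itgam was 115, 145, 229, 175 and 185 CPM in IkbkbCA and 109, 90.7, 104, 84.2 and 79.2 CPM in IkbkbWT. The lowest IkbkbCA library was only a little above the highest IkbkbWT library, and the log2 fold change was 0.86 (SE 0.17, FDR 0.0044, edgeR). C3ar1 was 577 to 887 CPM in IkbkbCA and 562 to 866 CPM in IkbkbWT, with a difference of 0.02 on the log2 scale, whose interval of -0.29 to 0.33 lies below the change seen with tau fibrils. C5ar1 was 186 to 340.2 CPM against 186 to 248 CPM (0.17, FDR 0.57), the highest value being that of library 3.

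The 10 libraries fell into 3 sets whose deviations from the group means went together (libraries 1 and 2, 3, and 4 and 5 of both genotypes). Correlations of those deviations were 0.317 to 0.593 in the 9 pairs within a set and -0.524 to 0.107 in the 16 pairs between sets, and the labels name no batch. The sets were chosen from these same deviations, so the correlations describe the sets and do not test them. Within these sets the log2 ratio of mean CPM of IkbkbCA over IkbkbWT was 5.55, 3.78 and 4.86 for C3. For C1qa it was 0.82, 0.39 and 0.97, for C1qc 0.34, 0.34 and 0.45, and for Itgam 0.38, 1.14 and 1.14. C1qb gave 0.41, -0.04 and 0.27, the negative value being that of 1 library of each genotype. With the sets as a covariate C1qb was called (0.27, FDR 0.031 in edgeR). This FDR is given as a description, since the covariate was drawn from the same libraries. Summed markers of border-associated macrophages ran from 475 to 1013 CPM in IkbkbCA and from 1287 to 1656 CPM in IkbkbWT, and 3 of the 4 tested fell, while summed microglia markers overlapped at 6068 to 10352 and 6637 to 10102 CPM. Those of granulocytes were 16.9 to 85.5 CPM in IkbkbCA and 6.48 to 12.0 CPM in IkbkbWT, without overlap. Of these 6 markers 2 were tested, S100a8 was called higher (2.52, FDR 0.0038 in edgeR) and S100a9 was not (0.04), and Ly6g was at 0 in IkbkbWT. The 85.5 CPM were those of IkbkbCA library 3, which was also the highest of its group in C3, Cfb, C5ar1 and Itgam. The same library was the lowest of its group in C1qa, C1qb, C1qc and C3ar1, and in summed microglia markers (6068 CPM). The part of these cell types in the changes of the complement genes was not tested.

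In Ikbkb-/- cultures 3 of the 8 tested genes rose, C1qa, C3 and C4b, and none was called lower. The rise was 1.30-fold for C1qa, 1.66-fold for C3 and 1.93-fold for C4b. Of 11242 genes tested, 14.6% were called and 7.64% were called higher. The groups did not overlap for 4 members, these 3 and C3ar1, as for 18.1% of all genes. The median log2 fold change of the tested members was 0.23, against 0.00 over all genes tested. Between libraries of a group the biological coefficient of variation was 10.9%, lower than in the other 3 comparisons.

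C1qa was 9294, 7593, 9048 and 8941 CPM in Ikbkb-/- and 6565, 6555, 7143 and 6631 CPM in Ikbkb+/+. The lowest Ikbkb-/- library stood only a little above the highest Ikbkb+/+ library, and the log2 fold change was 0.37 (SE 0.09, FDR 0.0072, edgeR). C1qb ran from 1752 to 2079 CPM and from 1431 to 2145 CPM (0.06, FDR 0.80), with the Ikbkb+/+ libraries on both sides of the Ikbkb-/- libraries. C1qc ran from 2879 to 3260.3 CPM and from 2236 to 2932 CPM (0.22, FDR 0.12), with an overlap.

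C3 was 11.3, 13.1, 16.2 and 14.6 CPM in Ikbkb-/- and 8.203, 9.68, 5.95 and 9.92 CPM in Ikbkb+/+. The groups lay close together without overlap (log2 fold change 0.73, SE 0.19, FDR 0.015, edgeR), and the FDR rose to as much as 0.062 when library 3 of either genotype was left out. C4b was 9.60, 7.38, 9.84 and 9.40 CPM in Ikbkb-/- and 4.85, 6.32, 3.80 and 3.97 CPM in Ikbkb+/+, on 13 to 51 counts per library. All Ikbkb-/- libraries were higher (0.95, SE 0.23, FDR 0.0078 in edgeR), on reads that may be shared with C4a. Cfb had 3, 10, 8 and 4 counts in Ikbkb-/- and 2, 0, 2 and 4 in Ikbkb+/+, a ratio of 4.06 (counting interval 1.77 to 10.4), and was not tested. In a fit of all 34 libraries together, which shares the wider spread of the other groups, none of these 3 calls held (FDR 0.28 for C1qa, 0.46 for C3 and 0.45 for C4b, edgeR).

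The receptors were not called in Ikbkb-/-. C3ar1 was 983, 966, 855 and 837 CPM against 830.0, 771, 756 and 750.1 CPM in Ikbkb+/+, which did not overlap (0.23, SE 0.08, FDR 0.068 in edgeR). C5ar1 ran from 152 to 185 CPM and from 180.1 to 197 CPM (-0.14, FDR 0.31). Itgam ran from 117 to 142 CPM in Ikbkb-/- and more widely, from 95.5 to 185 CPM, in Ikbkb+/+ (-0.21, FDR 0.41), and it was called lower without library 4 of Ikbkb+/+ (-0.39, FDR 0.016 in edgeR). Summed oligodendrocyte markers were 426 to 504 CPM in Ikbkb-/- and 218 to 316 CPM in Ikbkb+/+, those of border-associated macrophages 410.4 to 709.5 and 1423 to 1673 CPM, and those of granulocytes 8.02 to 12.6 and 8.22 to 403 CPM. Their part in these values was not tested.

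Because a call in one comparison and not in another does not show a difference, the differences between effects were tested in one fit of the 4 groups concerned, which share no controls. Between IkbkbCA and Ikbkb-/-, the effect on C3 differed by 3.97 on the log2 scale (SE 0.59, 95% confidence interval 2.75 to 5.20, FDR 4.4e-04 in edgeR), since C3 rose in both but by far more in IkbkbCA. The effect on Itgam differed by 1.10 (SE 0.26, interval 0.55 to 1.64, FDR 0.024). These 2 of the 9 members were called, against 2.23% of 12352 genes called higher, and the FDR of Itgam rose to as much as 0.061 without library 1 or 4 of Ikbkb-/- or library 1 or 2 of Ikbkb+/+. The difference for C1qa was 0.44 (interval 0.06 to 0.82, FDR 0.24), and those for C4b and Cfb were -0.80 (interval -1.59 to -0.02) and 2.71 (interval -0.09 to 5.51).

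The tau fibril effect exceeded the IkbkbCA effect for 4 of the 9 members, where 5.86% of 12841 genes were called in that direction. The differences were 0.86 for C1qa (FDR 0.019), 1.03 for C1qb (FDR 0.0042), 0.63 for C1qc (FDR 0.023) and 1.12 for C3ar1 (FDR 4.9e-04), all in edgeR. For C3 the effects differed by 0.87, with an interval of -0.28 to 2.02 (FDR 0.36), and for Cfb by 0.81, with an interval of -2.67 to 4.29. Itgam and C5ar1 differed by 0.64 (FDR 0.10) and 0.44 (FDR 0.22), and both were called when library 3 of IkbkbCA was left out. The cells for tau fibrils were plated before treatment, while the mixed glia of the genotypes received 4-hydroxytamoxifen. Control levels differed too, C1qa being 1246 CPM with vehicle and 6032 CPM in IkbkbWT when all 34 libraries were normalized together. Handling and starting level cannot be separated from these differences.

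The tau fibril effect exceeded the PS19 difference for 6 of the 9 members, Cfb among them, where 4.42% of 11852 genes were called in that direction. The other 5 were C1qa by 1.69 (FDR 1.1e-04), C1qb by 1.08 (FDR 0.015), C3 by 5.04 (FDR 5.3e-09), C3ar1 by 0.71 (FDR 0.028) and Itgam by 2.01 (FDR 8.0e-05, all in edgeR). Cfb entered this fit through the tau fibril libraries alone and had 0 to 6 counts in those of PS19 and NTG, so its fitted difference of 6.12 depends on the prior count and is given as a description. The call of C3ar1 was lost under total-count scaling, with no filter, and without vehicle library 2 or 4, with an FDR of up to 0.080. C1qc differed by 0.70 (FDR 0.13), and C5ar1 by 0.10, with an interval of -0.49 to 0.69 that spans 0 (FDR 0.89). Cultured and isolated cells differ in age and handling as well as in exposure to tau, which these values cannot separate. The plot of differences gives all 9 genes with their intervals.

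**Figure D3:**
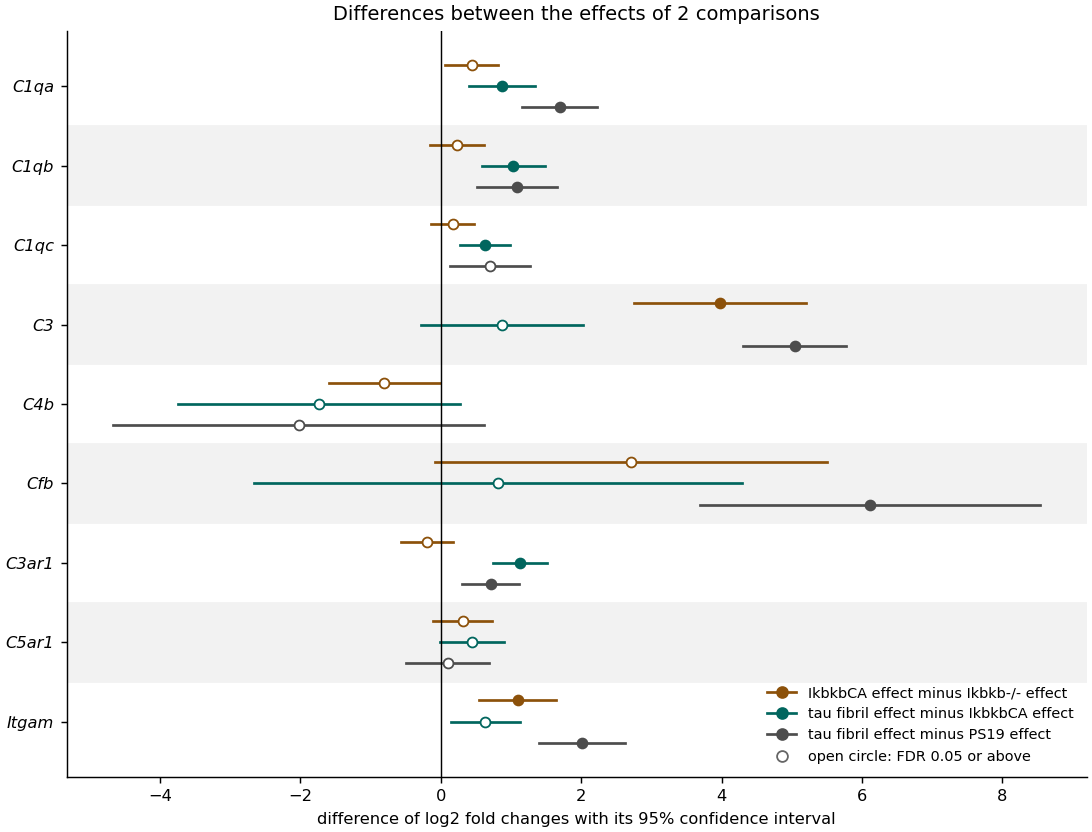
Difference between the log2 fold changes of 2 comparisons for each gene (horizontal axis), with points for the edgeR estimate and lines for its 95% confidence interval; filled points passed an FDR of 0.05. C3 lies at 3.97 for IkbkbCA minus Ikbkb-/- and at 5.04 for tau fibrils minus PS19, both filled, and its open point for tau fibrils minus IkbkbCA lies at 0.87.

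The C1q chains form a protein in which each chain occurs in equal number, and the ratios of their counts were compared between groups. The number of C1qb counts per C1qa count was 0.175 ± 0.0126 in IkbkbCA and 0.252 ± 0.0245 in IkbkbWT (SD, n = 5 each), with ranges of 0.165 to 0.195 and 0.211 to 0.273. All 5 IkbkbCA libraries were lower, the mean log2 ratio fell by 0.53, and the two-sided exact permutation p of 0.00794, the smallest that 252 splits allow, was 0.0317 after Benjamini-Hochberg adjustment over 8 tests. C1qc counts per C1qa count were 0.311 ± 0.0363 and 0.412 ± 0.0244 (log2 difference -0.41, the same exact p and adjusted p), again lower in all 5. With a library left out, or both libraries numbered 3, the differences were -0.59 to -0.50 for C1qb and -0.50 to -0.37 for C1qc, but in 6 of these 11 alternatives for each ratio the adjusted exact p was 0.0635 to 0.114. The 252 splits take the 10 libraries as exchangeable, although they fell into 3 sets. When libraries were exchanged only within a set, a choice made after seeing the data, 72 splits allowed an exact p of 0.0278 at the smallest. Both ratios reached this exact permutation p, and the adjusted p was 0.111. Given the exact p-values of the other comparisons, no result of this exchange could pass 0.05 after adjustment, so it cannot decide the question. Within the sets the log2 differences were -0.40, -0.43 and -0.70 for C1qb and -0.48, -0.050 and -0.52 for C1qc. In the other 3 comparisons the adjusted exact p was 0.152 to 0.314. With tau fibrils C1qc counts per C1qa count ran from 0.382 to 0.542 against 0.523 to 0.8285 with vehicle, lower than every vehicle library in 3 of 4 libraries. These ratios were chosen for test after the levels of the genes had been seen.

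**Figure D4:**
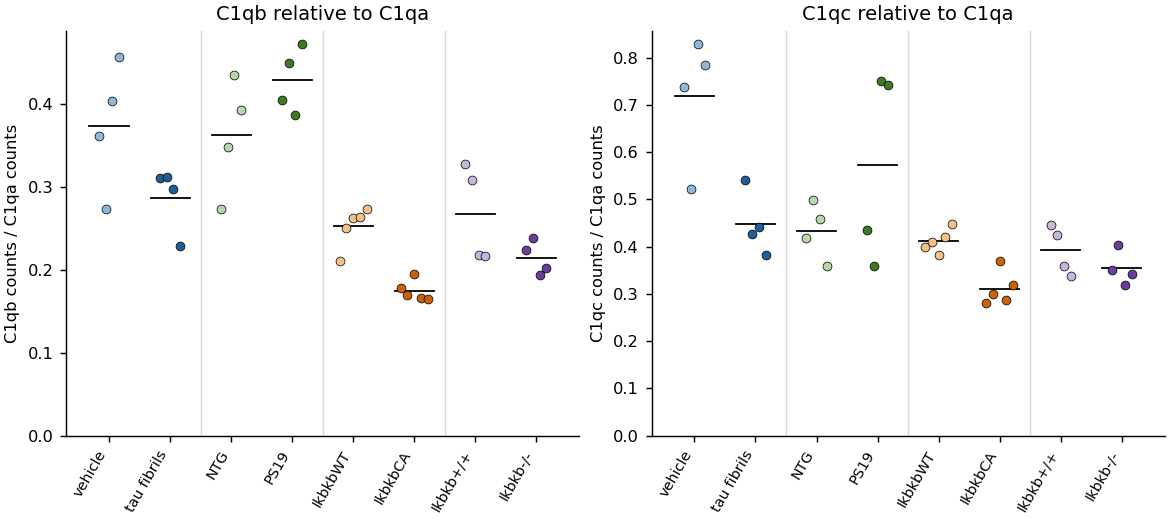
Counts of C1qb (left) and C1qc (right) per count of C1qa in each library, on a linear vertical axis from 0, with the 8 groups on the horizontal axis; points are libraries, black bars are group means and grey lines separate the comparisons. The 5 IkbkbCA libraries lie below the 5 IkbkbWT libraries in both panels.

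To order the groups, all 34 libraries were normalized on one scale, on which experiments of different handling are set side by side without a test. C3 was highest with tau fibrils (560 ± 86.3 CPM, SD, n = 4), then in IkbkbCA (293 ± 95.4 CPM, n = 5), and neither range overlapped the next. The other 6 groups had means of 8.30 to 14.3 CPM, and each overlapped its neighbour in the order, from PS19 at the top through Ikbkb-/-, vehicle, IkbkbWT and NTG to Ikbkb+/+. Cfb had the same leading pair, 26.2 ± 6.32 CPM with tau fibrils and 5.51 ± 6.60 CPM in IkbkbCA, followed by Ikbkb-/- at 1.57 ± 0.588 CPM and the other 5 groups at 0.196 to 0.668 CPM.

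The C1q genes had another order. C1qa was highest in IkbkbCA (10671 ± 1927 CPM) and lowest with vehicle (1246 ± 293 CPM), and the tau fibril libraries (4216 ± 402 CPM) lay above vehicle and below every other group without overlap. C1qb and C1qc were highest in PS19 (3489.9 ± 705 and 4495 ± 1158 CPM) and lowest with vehicle (458 ± 115 and 873 ± 145 CPM). C4b was highest in PS19 (12.1 ± 7.76 CPM) and lowest with tau fibrils (0.458 ± 0.533 CPM), and the ranges of PS19, NTG and Ikbkb-/- overlapped. Among the receptors C3ar1 was highest with tau fibrils (1554 ± 77.7 CPM) and lowest in NTG (421 ± 34.8 CPM), and C5ar1 was highest in IkbkbCA (234 ± 64.5 CPM) and lowest in NTG (60.1 ± 10.5 CPM). Itgam was highest in NTG and PS19 (797 ± 150 and 565 ± 186 CPM), both above all cultures, and lowest with vehicle (41.9 ± 7.89 CPM).

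Over the 8 group means of log2 CPM, the pattern of C3 was most like those of Ly6i, Acp5 and Pilrb1 (Pearson r 0.99, 0.99 and 0.98) among 13722 genes. That of C1qa was most like those of Lamp2, Irf5 and Med11 (r 0.99, 0.98 and 0.98). Within the 9 genes, C1qb and C1qc were nearest to each other (r 0.98), C1qa was nearest to C1qc (r 0.95) and C3 to Cfb (r 0.93), while C3 and C1qa had an r of 0.09. C4b was nearest to C1qc (0.82), C3ar1 to Cfb (0.81), C5ar1 to C3ar1 (0.60) and Itgam to C1qb (0.89). These correlations describe 8 means from 4 experiments that differ in handling and depth.

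Of 39 other complement genes, 11 or 12 passed the filter in each comparison. With tau fibrils 4 of the 11 tested rose and 1 fell (median log2 fold change 0.29), where 29.9% of all genes were called and 14.5% called higher. Those that rose were C2, the protease subunit that partners C4 (2.46, from 6.70 ± 2.30 to 38.5 ± 5.24 CPM), properdin, Cfp, which stabilizes the alternative convertase (1.99), the membrane regulator Cr1l (0.54) and Itgb2, which encodes the beta chain that pairs with CD11b (1.13). Clusterin, Clu, fell by 0.70 on the log2 scale. C2 reads, like those of Cfb, may be undercounted, since Gm20547 spans the 3′ end of C2 on the same strand. In PS19 Itgax, the alpha chain of the related integrin CD11c, was the 1 of 12 called, at 180 ± 34.1 CPM against 42.6 ± 3.47 CPM (2.08, FDR 8.2e-04 in edgeR), where 0.0707% of all genes were called, and with age as a covariate none of the 12 or of all genes was called.

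In IkbkbCA 3 of 12 rose and 2 fell (median 0.09), where 14.5% of all genes were called and 7.31% called higher. C2 rose by 1.20, Cfp by 1.87 and the classical protease gene C1ra by 1.44 on the log2 scale, while the lectin Fcna (ficolin A) changed by -2.20 and the surface receptor gene Cd93 by -1.22. In Ikbkb-/-, where 14.6% of all genes were called and 7.64% called higher, 1 of 11 rose, C2 (1.13), and 3 fell (median -0.02), namely Fcna (-1.40), the collectin Colec12 (-0.36) and Itgax (-3.63). The Itgax groups overlapped, at 19.9 ± 16.1 CPM in Ikbkb+/+ and 1.66 ± 1.00 CPM in Ikbkb-/-. Fcna was thus lower and C2 higher in both altered genotypes, both of which carry the Cre allele that their controls lack. Summed markers of border-associated macrophages were lower in both genotypes too. The part of the allele or of these cells in the values was not tested. The plot of the other complement genes shows these values.

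**Figure D5:**
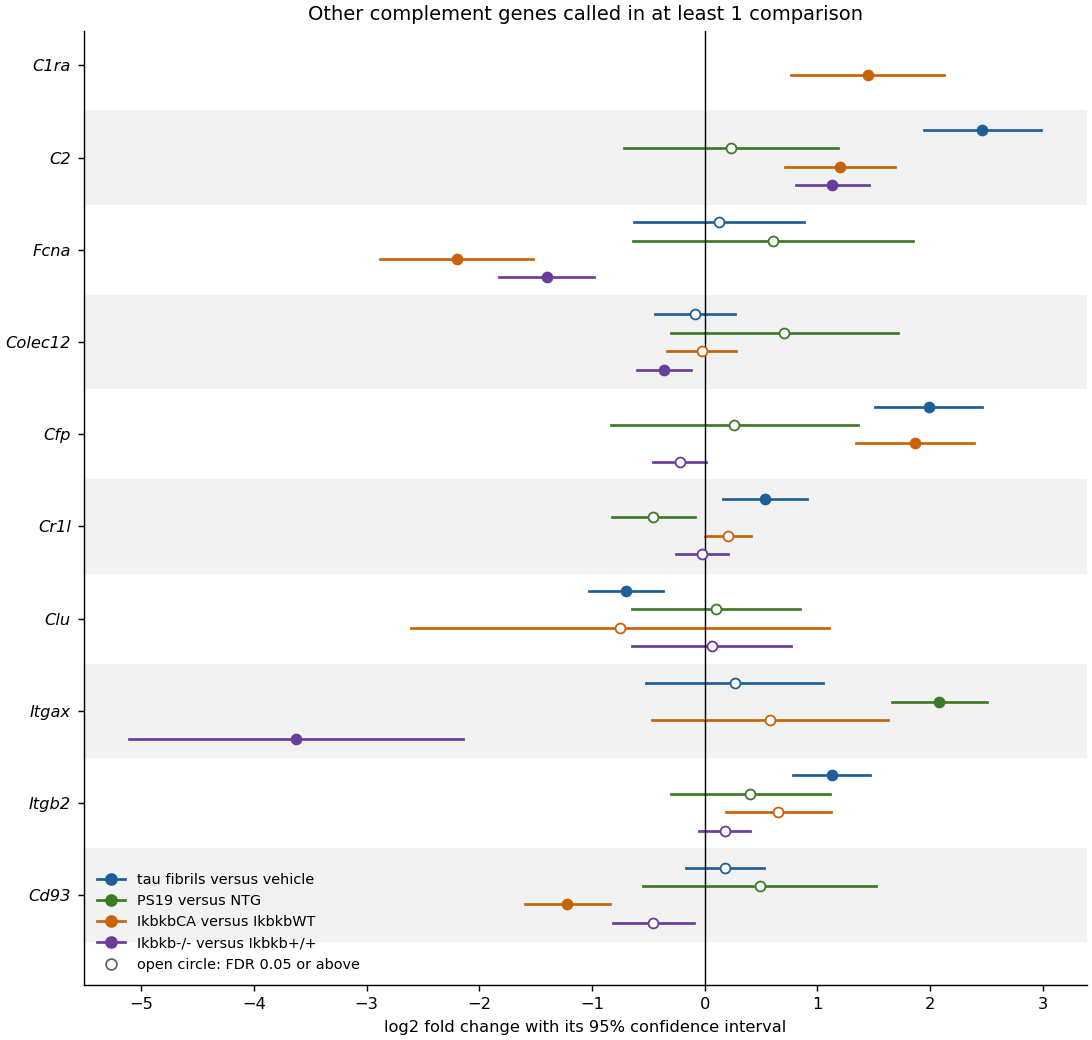
Log2 fold change (horizontal axis) of the 10 other complement genes called in at least 1 comparison, with points for the edgeR estimate and lines for its 95% confidence interval; colours mark the 4 comparisons and filled points passed an FDR of 0.05. C2 is filled and above 1 with tau fibrils, in IkbkbCA and in Ikbkb-/-, and Fcna is filled and below -1 in IkbkbCA and Ikbkb-/-.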

How the data were processed

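RNA of 34 microglia samples was sequenced as QuantSeq 3′ libraries, and 24 cortex samples of the 58 in the series were not analysed here. The authors mapped reads with the Lexogen QuantSeq pipeline on BlueBee to GRCm38 with GENCODE annotation and deposited raw counts per Ensembl gene, 1 table per library with 5 closing lines for reads not counted on a gene, which were left out of library sizes (no feature 12.4% to 38.3%, ambiguous 0.409% to 0.708%). The submitters' processing notes name RSEM, STAR, edgeR and limma without versions, and whether shared reads were split is not given in the sources used here. Total counts were 1672052 to 8349128. Symbols came from GENCODE M21, which held 47224 of 47643 identifiers.

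The tools were edgeR 4.0.16, DESeq2 1.42.0 and limma 3.58.1 in R 4.3.3. Each comparison was fitted on its own groups with TMM, filterByExpr (minimum count 10, total 15) and edgeR's quasi-likelihood test, and genes were called at a Benjamini-Hochberg FDR under 0.05 over all genes tested. Alternatives were RLE, total-count scaling, a stricter filter (10 counts or more in each library), no filter, DESeq2, limma-voom, one fit of all 34 libraries, age in PS19 and leaving out each library, and, chosen after seeing the data, 3 sets as a covariate or as the limit of a permutation and both libraries numbered 3 left out. Values are given for all 9 members, for other complement genes with an FDR under 0.05 in any comparison and for the 3 genes most like C3 and C1qa. The members and lists were chosen with earlier results of these data known, and 1 other complement gene is not reported here. The procedure was tested on simulated data. None of 56 pairs of libraries within groups was identical or within sampling noise. Intervals of count ratios cover counting error only. Promoters came from the RefSeq table of GRCm38.p6, which held 6 of the 9 members.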

Additional observations from a re-analysis of the deposited data

Results flagged for a closer look

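In 6 of 72 sets of 1 gene in 1 group, 1 library stood far from the others by Dixon's test, which chance gives in about 1 of 20 sets. Library 1 of PS19 was high in C5ar1 (120.3 CPM), library 3 of IkbkbWT high in C3 (31.0 CPM) and low in C3ar1 (562 CPM), and library 3 of IkbkbCA high in Cfb (17.3 CPM). Library 3 of Ikbkb+/+ was high in C1qa (7143 CPM) and library 1 of Ikbkb-/- high in C1qb (2079 CPM). The effects of IkbkbCA and Ikbkb-/- differed, in the edgeR test of the difference itself, by 3.97 for C3 and by 1.10 for Itgam on the log2 scale.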

How the results depend on the processing

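Of 1178 refits of 60 log2 changes, 1135 kept direction and side of the threshold, 21 lost and 10 gained a call, and 12 changed sign, none of them called in either fit. One fit of all 34 libraries called 1 member in PS19 (C3ar1, FDR 0.044) in place of 0 and 0 in Ikbkb-/- in place of 3. Leaving out 1 library gave 8 called members with tau fibrils, 0 in PS19, 4 to 5 in IkbkbCA and 2 to 4 in Ikbkb-/-, and 1 to 2, 4 to 6 and 5 to 7 in the differences IkbkbCA minus Ikbkb-/-, tau fibrils minus IkbkbCA and tau fibrils minus PS19; the count of 1 came without library 1 or 4 of Ikbkb-/- or 1 or 2 of Ikbkb+/+. Signs turned for C1qa in PS19 (0.055 with age as a covariate, and -0.13 to 0.049 leaving out 1 library, above 0 without PS19 library 4, at 0.037, or NTG library 2) and C4b there (-0.069 without PS19 library 3, up to 1.02 without others). In IkbkbCA they turned for C3ar1 (-0.037 with total-count scaling, and -0.075 without IkbkbWT library 3 to 0.13 without IkbkbCA library 3, with -0.023 without IkbkbCA library 4), C4b (-0.11 without IkbkbCA library 2, up to 0.26 without others) and C5ar1 (-0.022 without both libraries numbered 3). In Ikbkb-/- they turned for C1qb (-0.040 without Ikbkb+/+ library 4, below 0 also without Ikbkb-/- library 1, and up to 0.16 without others). For C5ar1, tau fibrils minus PS19, total-count scaling gave -0.0069. The cause was not tested. Without both libraries numbered 3 the log2 change of Cfb in IkbkbCA was 3.38, and without IkbkbWT library 2 it was 5.38. With 3 sets as a covariate, drawn from these same libraries, C1qb was called in IkbkbCA (FDR 0.031, given as a description). Over all genes, PS19 gave 8 calls, 166 with no filter, 98 with DESeq2, 4 with limma-voom, 375 in one fit and 0 with age; Ikbkb-/- gave 1641 and 515 in one fit, and IkbkbCA 1692 and 2846 with 3 sets. Total-count scaling moved the median of all genes with tau fibrils from -0.01 to -0.16. It moved calls higher and lower from 1506 and 1602 to 1057 and 2254 with tau fibrils, from 855 and 837 to 753 and 1252 in IkbkbCA, from 275 and 111 to 252 and 193 for IkbkbCA minus Ikbkb-/- and from 524 and 433 to 464 and 587 for tau fibrils minus PS19, while the 8 members stayed called with tau fibrils. No paired analysis was possible because the labels give no replicate numbers. The library numbers used here only follow the order of deposit, and the 3 sets were seen in the data. At least 10 counts in every library left Cfb untested, and DESeq2 gave it no adjusted p in IkbkbCA; Cfb and C4b, at 0 to a few counts in several groups, are limited by depth.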
